A study of Mus musculus with 8 samples.

Results

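The regions described here are stretches of mouse hippocampal chromatin that gave a strong Sono-seq peak in 2 or 3 of 8 libraries and appear nowhere in the deposited list of open regions. They were found by taking the autosomal peaks whose z score reached 30 (z is the authors' own value per peak, whose scaling is not stated), adding 50 bp to each peak's end, and merging peaks of all libraries that lay at most 100 bp apart. This gave 226676 merged intervals, of which 19176 overlapped no listed region and held strong peaks of 2 libraries (15287 intervals) or 3 libraries (3889 intervals). They are called unlisted intervals below, and the libraries whose strong peaks they hold are called their carriers. The number of carriers, the z threshold and the region list chose the intervals, so counts of carriers and the z of strong peaks are given as a description without a test. Between groups, only the span of the peaks and the presence of weaker peaks were tested. The rule used the positions of the strong peaks and the z threshold of 30, on which both measures also rest. It also set which intervals each library carries. The span was taken over carried intervals and weaker peaks over intervals not carried, so these tests are not independent of the rule.

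All 8 libraries were made from the hippocampus of C57BL/6J males aged 2 months, housed singly. The 4 conditioned libraries were taken 30 min after contextual fear conditioning, in which a chamber is paired with 1 foot shock (2 s, 1.5 mA). The 4 control libraries came from animals that had the same 3 days of handling but no conditioning, with dissection matched for clock time. Reads summed over the listed regions ranged from 36786183 in control replicate 3 and 36857885 in conditioned replicate 2 to 83233550 in conditioned replicate 4, and no counts over the unlisted intervals were used here. The labels do not say whether each library is 1 animal, so p-values measure only the spread between these libraries, which may be partly technical.

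Sono-seq reads gather where crosslinked chromatin breaks easily under sonication, which is known to happen at active promoters, enhancers and insulators, where nucleosomes are sparse or mobile. No antibody is used, so a peak names no protein or histone mark. Whole tissue was used, and the hippocampus holds several kinds of neurons and glia, so a peak can come from many cells or from a subset. A region open in few cells and a region weakly open in all cells cannot be told apart in such data. Gene names, sequences and a check of hippocampal marker genes are not given, since an annotation of mm9 was not used here. Each interval is given by its mm9 position.

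The limit between the listed and the unlisted was sharp in 1 direction only. Of the merged intervals with strong peaks of 4 or more libraries, 0 were unlisted, and the deposited list has 4 to 8 carriers per region. Among intervals of 3 libraries 3889 were unlisted and 268 overlapped a listed region, and among intervals of 2 libraries the numbers were 15287 and 199. A further 195054 unlisted intervals had a strong peak of 1 library, and 934 intervals of 1 library overlapped a listed region. The unlisted intervals of 2 or 3 libraries outnumbered the 11304 listed regions.

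Unlisted intervals were mostly narrow, with a second, smaller group near 1000 bp. Their width had a median of 156 bp, with the middle of the distribution (25th to 75th percentile) between 96 and 515 bp and extremes of 50 and 3124 bp. At most 200 bp were spanned by 11864 of them (61.9%), and at least 400 bp, the width of the narrowest listed region, by 5556 (29.0%). Only 1756 lay in between. The listed regions had a median width of 858 bp.

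**Figure D1:**
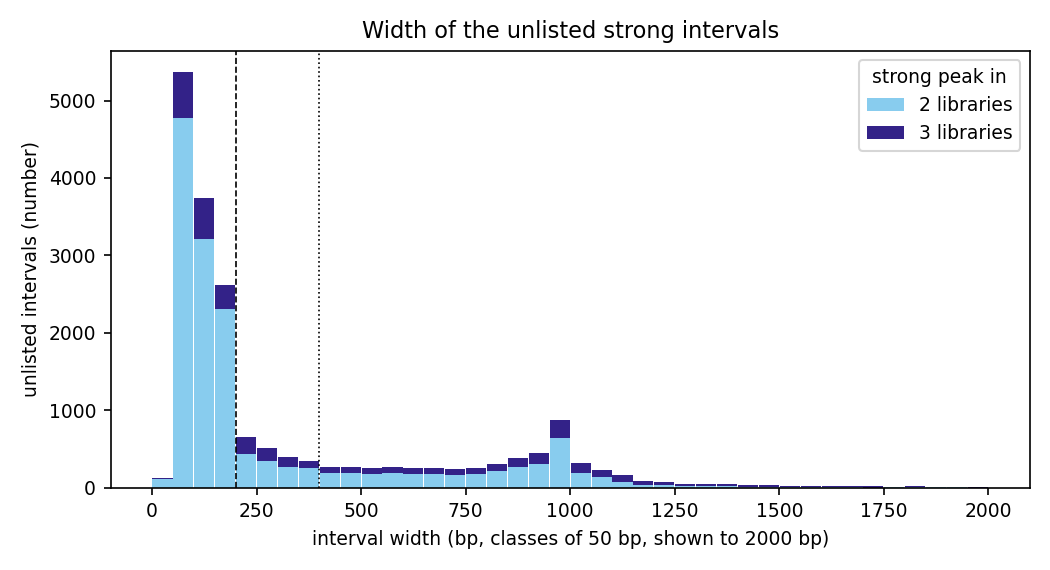
Width of the 19176 unlisted strong intervals in classes of 50 bp (x axis, bp, shown to 2000 bp) against their number (y axis), with intervals of 2 libraries in light blue and of 3 libraries stacked in dark blue. The dashed line marks 200 bp and the dotted line 400 bp; most intervals lie left of the dashed line, and a smaller rise is seen just below 1000 bp.

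The width of an interval went with the shape of its peaks. In every library and on each of the 19 autosomes, peak starts lay on a grid of 50 bp steps, and a peak with equal start and end covers 1 such step. A library's span in an interval ran from the first start to the last end of its strong peaks. Separate 1-step peaks of a library in the same interval therefore count as more than 1 step. Every carrier had a span of 1 step in 10787 unlisted intervals (56.3%), whose median width was 101 bp. In 1840 intervals (9.60%) the strong peaks of every carrier spanned more than 1 step, with a median width of 956 bp. The longest peak spanned 1000 bp in each of the 8 libraries, which is where the second rise in width lies. The remaining 6549 intervals were mixed, with a span of more than 1 step in at least 1 carrier and of 1 step in another (median width 529 bp).

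The widest unlisted interval, on chromosome 4 (6997198 to 7000322), was 3124 bp wide and lay 1617 bp from a listed region. Its z was 32.0, 25.0, 23.2 and 22.0 in control replicates 1 to 4, against 30.7, 22.4, 46.0 and 28.2 for conditioned replicates 1 to 4. All 8 libraries thus had a peak there, and the values of the groups overlapped. On chromosome 8 (93493122 to 93495789, 2667 bp) z was 31.2, 21.2, 8.84 and 17.5 in the controls and 50.7, 10.9, 32.5 and 28.0 in the conditioned libraries, again overlapping. The 3 next widest lay on chromosome 16 (26450337 to 26453003, with a highest z of 61.1), on chromosome 19 (52504339 to 52506889, with 39.4) and on chromosome 1 (112998939 to 113001338, with 39.9). Each of the 5 widest intervals held a peak in all 8 libraries. Their highest z lay between 39.4 and 61.1.

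The highest z of an unlisted interval had a median of 45.7 (25th to 75th percentile 38.5 to 57.4), and its weakest carrier a median z of 33.6. A highest z of at least 100 was found in 402 intervals (2.10%), while 1 interval had at least 100 in every carrier. Intervals of 3 libraries had a higher median than those of 2 (51.8 against 44.3), and narrow intervals a higher median (46.9) than wide ones (43.1). More carriers give more chances for a high value, so the first of these differences follows in part from taking a maximum.

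The strongest unlisted intervals were narrow in 4 of 5 cases. The highest z of all, 318, was found in control replicate 3 on chromosome 5 (122208637 to 122208707, 70 bp wide). Conditioned replicates 3 and 4 had z of 105 and 74.6 there, and the other 5 libraries listed no peak of any height. On chromosome 4 (140375624 to 140375762), z was 218 in conditioned replicate 2, 61.1 in control replicate 4 and 6.79 in control replicate 2, with no peak in the other 5. On chromosome 1 (74140989 to 74141083) only conditioned replicate 2 (198) and conditioned replicate 4 (30.6) listed a peak. These 3 intervals combined a very strong peak in 1 library with no peak in at least 5 others.

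In the other 2 of the 5 strongest, every library listed a peak. On chromosome 7 (77084173 to 77084356) z was 9.96, 5.73, 7.77 and 200.9 in control replicates 1 to 4, against 22.3, 13.2, 38.2 and 13.6 for conditioned replicates 1 to 4. On chromosome 4 (133000012 to 133001162, 1150 bp) it was 22.4, 21.1, 6.97 and 14.1 in the controls and 17.0, 193, 47.6 and 16.2 in the conditioned libraries. In both, 1 library stood far above the rest, and it was a control in the first and a conditioned library in the second.

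The libraries took part very unequally. Control replicates 1 to 4 carried 2182, 6243, 2075 and 3810 unlisted intervals whereas conditioned replicates 1 to 4 carried 6153, 2582, 9316 and 9880. Conditioned replicates 3 and 4 each carried more than control replicates 1, 3 and 4 together, and at least 1 of these 2 libraries was a carrier in 14535 intervals (75.8%). The groups overlapped, since control replicate 2 carried more than conditioned replicates 1 and 2. Conditioned libraries carried 6983 ± 3361 on average and controls 3578 ± 1946 (SD, n = 4 per group). The means lay 3405 intervals apart. They lay 1876 apart when control replicates 1 and 3 were both left out and the intervals were chosen anew from the remaining libraries (15879 intervals). Carriage is what chose the intervals, so this is a description.

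**Figure D2:**
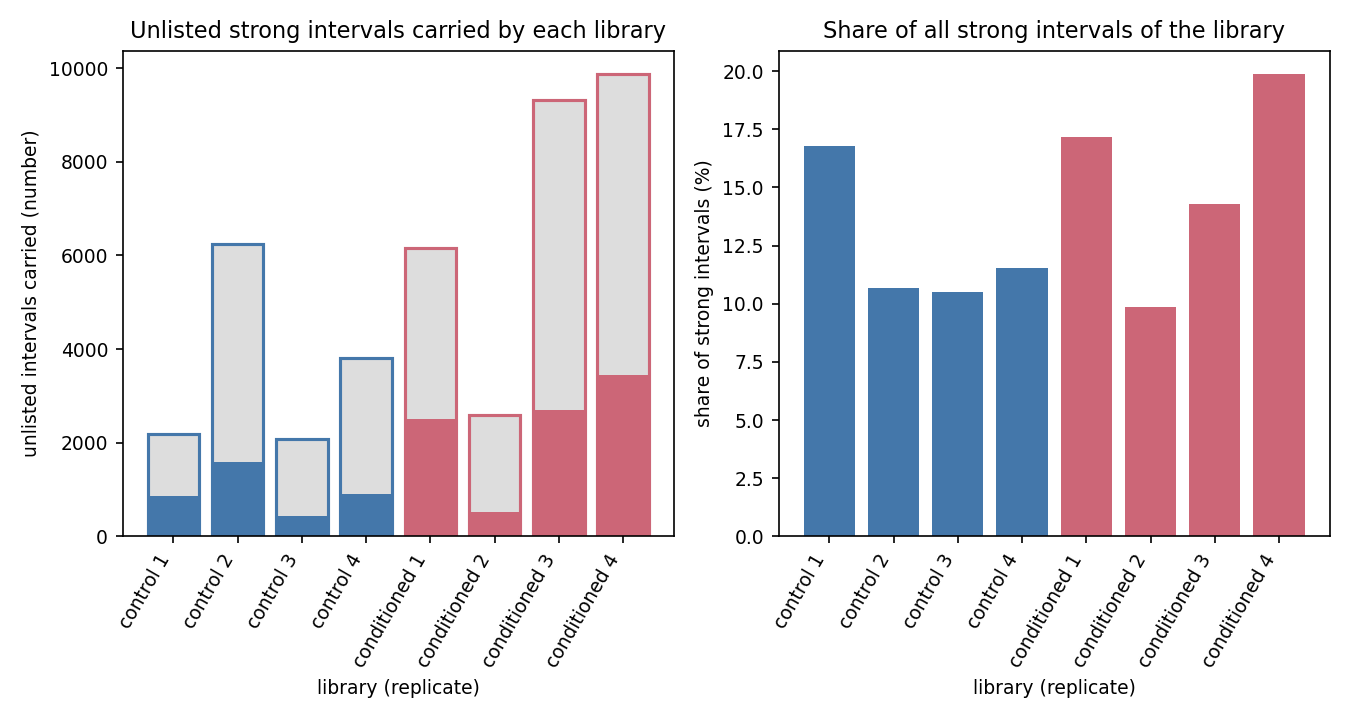
Left, number of unlisted intervals carried by each library (y axis), with outlined grey bars for all widths and filled bars for intervals of at least 400 bp; right, these intervals of all widths as a percent of all merged strong intervals of the library. Controls are blue and conditioned libraries red; control replicate 2 (6243) overlaps the conditioned range of 2582 to 9880.

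As a share of all merged intervals with a strong peak of the library, the unlisted intervals made up 16.8%, 10.7%, 10.5% and 11.6% for control replicates 1 to 4. For conditioned replicates 1 to 4 they made up 17.2%, 9.85%, 14.3% and 19.9%. Control replicate 1 thus had few strong intervals (12998) but a high share, and control replicate 2 many (58382) with a low share. The conditioned mean of 15.3% ± 4.29 exceeded the control mean of 12.4% ± 2.97 by 2.91 points (SD, n = 4 per group), with overlapping values. The difference was 0.597 to 4.66 points when 1 library was left out and the intervals were chosen anew.

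Wide and narrow intervals were spread unevenly over the libraries. Intervals of at least 400 bp made up 39.5%, 25.3%, 21.3% and 23.9% of those carried by control replicates 1 to 4. The conditioned libraries, in the same order, had 40.7%, 19.9%, 29.0% and 34.9%. The lowest shares, in conditioned replicate 2 and control replicate 3, were those of the libraries with the lowest total counts; the part of depth in this was not tested. A library's own strong peaks together spanned more than 1 step in 33.5%, 17.5%, 6.51% and 11.2% of the intervals carried by control replicates 1 to 4. Among the conditioned libraries this share was 40.7%, 6.86%, 26.3% and 41.3%. Conditioned libraries averaged 28.8% ± 16.2 and controls 17.2% ± 11.8 (SD, n = 4 per group), and the 11.6 points between them (SE 10.0) stayed within the spread (two-sided exact permutation p = 0.286, or 0.686 after Benjamini-Hochberg adjustment over the 6 library measures computed). The adjustment also took in the measures given here without a test, so the adjusted value depends partly on them. The smallest p that 4 against 4 allows is 0.0286. The rule used the positions of these strong peaks, so the comparison of groups is not independent of it. The median span of a library's strong peaks was 1 step (50 bp) in all 8, so this measure leaves no room for a difference. Median z of the strong peaks was 34.3, 39.7, 41.0 and 41.4 in the controls and 35.2, 42.7, 39.6 and 37.5 in the conditioned libraries. The group means lay -0.371 apart (conditioned minus control), with overlapping values.

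Unlisted intervals were more often carried by conditioned libraries alone than by controls alone. Conditioned libraries alone carried 7038 (36.7%), control libraries alone 1578 (8.23%), and libraries of both groups 10560 (55.1%). Among intervals of 3 libraries, 1173 had 3 conditioned carriers, 2122 had 2 conditioned and 1 control, 570 had 1 conditioned and 2 controls, and 24 had 3 controls. The ratio of conditioned-only to control-only intervals was 4.46 over all, 3.13 in narrow intervals (4103 against 1312) and 12.5 in wide ones (2244 against 179). It was 2.68, 3.63, 1.80 and 1.60 without conditioned replicate 1, 2, 3 or 4, and 6.80, 17.0, 7.52 and 11.2 without control replicate 1, 2, 3 or 4. The intervals were chosen anew each time from the libraries left. A group with fewer libraries has fewer combinations of carriers, and the group's own count was lower in each of these 8 cases. Conditioned replicates 1 to 4 had strong peaks in 35827, 26206, 65266 and 49697 merged intervals. Control replicates 1 to 4 had them in 12998, 58382, 19769 and 32986. Conditioned replicates 1, 3 and 4 also had higher total counts than every control. The same ratio over all merged intervals is not given, and the part of library size was not tested. The excess of conditioned-only intervals is therefore a description and is not read as particular to the unlisted intervals.

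The pairs of libraries show the same concentration. Conditioned replicates 3 and 4 were the only carriers of 2487 intervals, the largest of the 28 pairs, and together carried 4661 intervals, which is 50.0% of all those of conditioned replicate 3 and 47.2% of those of conditioned replicate 4. Next came control replicate 2 with conditioned replicate 4 (1273) and with conditioned replicate 3 (1230), then conditioned replicate 1 with conditioned replicate 4 (1174) and with conditioned replicate 3 (1021). The fewest, 91, were carried by control replicates 1 and 3. Intervals held by both libraries of a pair, as a percent of those held by either, averaged 14.6% over the 6 conditioned pairs (5.25% to 32.1%), 5.06% over the 6 control pairs (3.43% to 8.13%) and 7.68% over the 16 pairs with a library of each group (3.21% to 17.2%). A library that carries few intervals can share few, and the part of library size in these shares was not tested. Among triples, conditioned replicates 1, 3 and 4 came first with 920 of the 3889 intervals (23.7%), followed by control replicate 2 with conditioned replicates 3 and 4 (594).

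**Figure D3:**
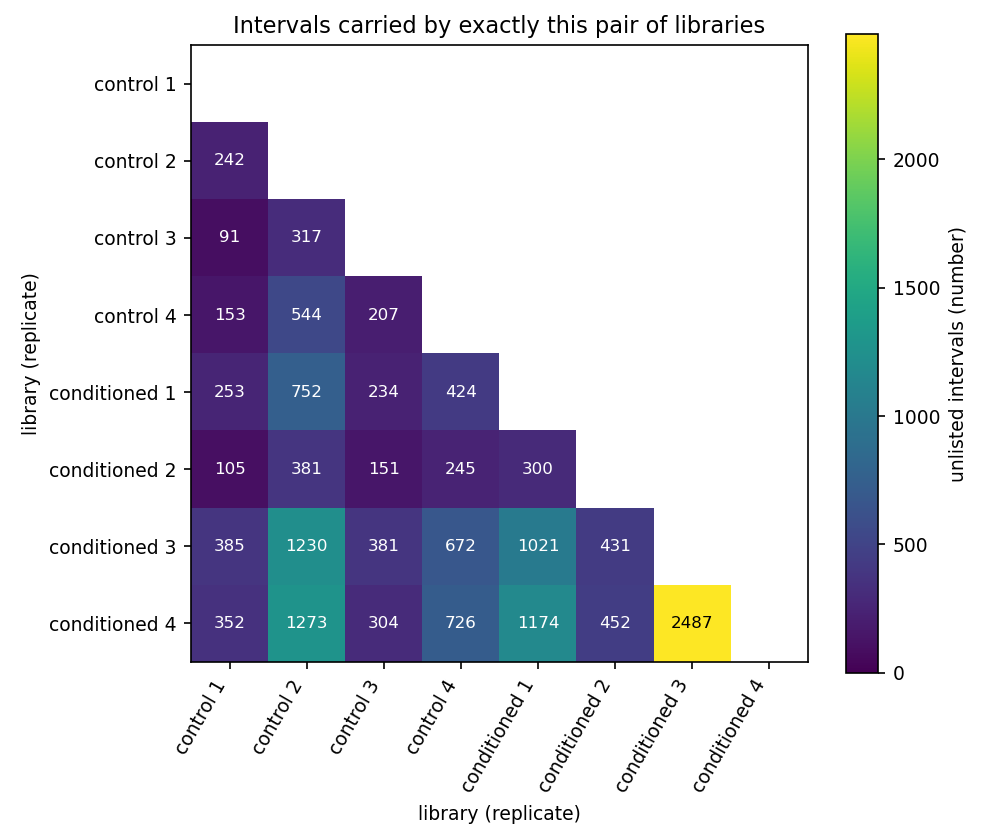
Number of unlisted intervals whose only carriers are the pair of libraries given by row and column (libraries by group and replicate, colour scale from dark for few to yellow for many, with the number printed in each cell). The pair of conditioned replicates 3 and 4 stands out with 2487, and the lowest value is 91 for control replicates 1 and 3.

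Of the intervals carried by 3 conditioned and no control library, the 5 whose weakest carrier was strongest are given as examples. They were chosen by z in these libraries, so higher conditioned values follow from the choice. On chromosome 17 (27957110 to 27957296) z was 15.2, 29.9, 7.13 and 17.1 in control replicates 1 to 4, against 18.1, 63.1, 75.03 and 68.9 for conditioned replicates 1 to 4, so that control replicate 2 missed the threshold narrowly and conditioned replicate 1 lay within the control range. On chromosome 5 (37482407 to 37482801) the values were 25.5, 22.4, 8.87 and 27.3 in the controls and 61.3, 24.0, 89.9 and 84.8 in the conditioned libraries. The other 3 lay on chromosome 7 (6238046 to 6238273, carriers' z 61.2 to 74.2), on chromosome 8 (108860622 to 108860722, 58.9 to 82.6) and again on chromosome 8 (125566222 to 125566289, 58.9 to 72.6). In all 5, 1 conditioned library lay below at least 1 control.

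The 5 intervals carried by 3 control and no conditioned library were chosen in the same way, by the z of the weakest carrier. On chromosome 9 (89733835 to 89733935) control replicates 1, 3 and 4 had z of 40.7, 61.0 and 59.8, and neither control replicate 2 nor any conditioned library listed a peak. On chromosome 13 (57974731 to 57974819) control replicates 1, 2 and 3 had 53.8, 45.4 and 57.2, and the only other peak was in conditioned replicate 2 (14.1). The others, at 104454604 to 104454758 of chromosome 8, 4184187 to 4184322 of chromosome 16 and 12626277 to 12626493 of chromosome 5, held peaks of 6, 5 and 5 libraries. The 5 conditioned examples had peaks in 6 to 8 libraries and the 5 control examples in 3 to 6. They are the extremes of 1173 and of 24 intervals, so these ranges do not compare the groups.

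Weaker peaks were common in the libraries that were not carriers. A peak of any listed z (5 or more) was present in all 8 libraries in 7006 unlisted intervals (36.5%) and in the carriers alone in 730 (3.81%), and the median number of libraries with a peak was 7. Outside the carriers, the median of the highest z was 21.2 (25th to 75th percentile, 14.8 to 26.1). Had the z minimum been 25 for the same intervals, 3039 of them (15.8%) would have had 4 or more carriers, and with 20 it would have been 6756 (35.2%). By contrast, unlisted intervals with a strong peak in 1 library had a median of 2 libraries with any peak, and 2.71% had a peak in all 8. These numbers include the carriers, so part of this contrast follows from the rule. The intervals of 1 library were also narrower (median width 50 bp against 156 bp), and the part of width was not tested.

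Wide intervals far more often had weaker peaks elsewhere. Of the wide unlisted intervals, 80.2% (4457 of 5556) had a peak in all 8 libraries and 2 had none outside their carriers. Of the narrow ones, 15.4% (1822 of 11864) had a peak in all 8 and 700 had none outside their carriers. Wide intervals of 1 library were also high, with 49.3% in all 8 libraries, against 1.09% of the narrow intervals of 1 library. A wide interval can be met by a peak at more positions, so the middle base of each interval was examined as well. It lay under a peak of a library that was not a carrier in 48.8% to 70.1% of wide and in 24.5% to 45.3% of narrow unlisted intervals, over the 8 libraries, and in each library the wide value was the higher. Peaks covered 2.45% to 6.64% of the autosomal span in these libraries.

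**Figure D4:**
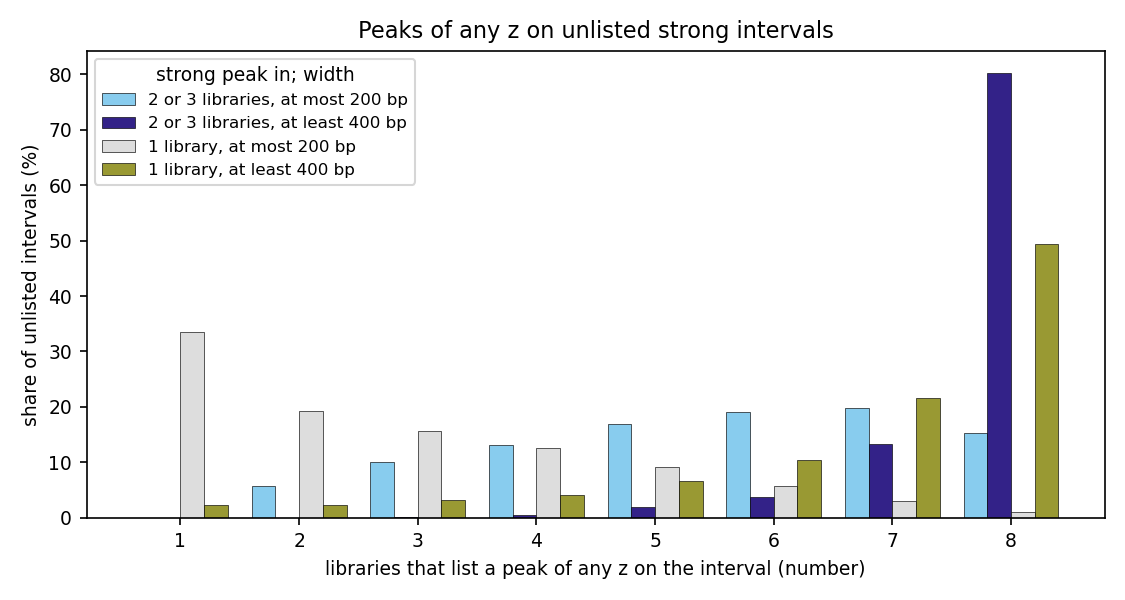
Number of libraries that list a peak of any z on an interval (x axis) against the percent of unlisted intervals (y axis), for intervals of 2 or 3 libraries and of 1 library, each split by width. Wide intervals of 2 or 3 libraries (dark blue) reach 80.2% at 8 libraries, whereas narrow ones (light blue) are spread from 2 to 8.

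Among unlisted intervals that a library did not carry, it listed a weaker peak in 80.0%, 73.0%, 59.4% and 69.8% of cases for control replicates 1 to 4. For conditioned replicates 1 to 4 these were 76.2%, 63.9%, 72.7% and 71.3%. The lowest values were again those of control replicate 3 and conditioned replicate 2, the 2 libraries with the lowest total counts and the least length under peaks (63.1 and 59.2 Mb); the part of depth was not tested. Which intervals count as not carried was set by the rule, so the comparison of groups is not independent of it. The group means were 71.0% ± 5.20 for conditioned libraries and 70.6% ± 8.57 for controls (SD, n = 4 per group). They lay 0.443 points apart (SE 5.01), less than the spread (exact permutation p = 0.943, adjusted 1).

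In the 7006 intervals with a peak in all 8 libraries, the median z of control replicates 1 to 4 was 20.6, 21.1, 11.7 and 15.8. That of conditioned replicates 1 to 4 was 27.6, 12.6, 30.8 and 32.9. Conditioned replicates 1, 3 and 4 were above all controls and conditioned replicate 2 was below 3 of them. These medians include the carriers' values, which the rule used, and are a description.

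The highest z of every conditioned library was above that of every control in 583 unlisted intervals (3.04%), and the reverse held in 31 (0.162%). Over all 226676 merged intervals the shares were 1.11% and 0.154%. Both directions together came to 614 (3.20%) against a background of 1.26% over all merged intervals, most of which have 1 library. Such a call needs a peak in every library of the higher group. Of the unlisted intervals of 1 library, 32.3% had a peak of any z in 1 library and 18.6% in 2, so these could not be called. The rule also used z. The 2 shares are therefore a description and do not show an enrichment. The count depends on the libraries, and so does the background. Without conditioned replicate 2 it was 3016 (17.7%), against 6.75% of all merged intervals. Without control replicate 1 it was 1155 (6.59%, against 2.51%), and without control replicate 2 it was 1095 (7.62%, against 3.18%).

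Few unlisted intervals lay close to a listed region. The distance of randomly placed intervals was not computed, so remoteness is not read as a trait of the unlisted intervals. The distance to the nearest listed region had a median of 82465 bp; 329 intervals (1.72%) lay within 1000 bp, 2310 (12.0%) within 10000 bp, and 8734 (45.5%) more than 100000 bp away. Intervals of 3 libraries were nearer (median 68308 bp) than those of 2 (86560 bp), and those of 1 library were at 90168 bp. Listed regions themselves had a median distance of 48481 bp to the nearest other listed region. Wide unlisted intervals had a median distance of 99630 bp and narrow ones of 76953 bp, although 2.38% of wide against 1.21% of narrow intervals lay within 1000 bp. More than 1 Mb away lay 2.03% of wide and 1.08% of narrow intervals.

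The nearest of all, on chromosome 11 (103670479 to 103671131), was 160 bp from a listed region of 5 carriers. Its z was 72.7 in control replicate 2 and 32.2 in conditioned replicate 4, with weak peaks in control replicate 4 (7.03) and conditioned replicate 1 (7.22) and none in the other 4. On chromosome 6 (145813543 to 145814193), 161 bp from a listed region of 7 carriers, z was 18.4, 29.0, 13.3 and 31.5 in the controls and 21.5, 17.7, 47.9 and 57.2 in the conditioned libraries. The next nearest were at 165 bp on chromosome 15 (101004151 to 101004255), at 177 bp on chromosome 19 (46574815 to 46574889) and at 179 bp on chromosome 5 (41490651 to 41491679). These 3, and the one on chromosome 6, held peaks in all 8 libraries. The 329 intervals within 1000 bp neighboured 328 listed regions, whose median number of carriers was 5 against 6 for the whole list.

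The farthest intervals lay on chromosomes 7 and 17. Those of chromosome 7 at 9740226 to 9740332, 9737976 to 9738226 and 9697726 to 9697782 were between 2443914 and 2486414 bp from a listed region. The first had z of 44.2 in control replicate 2 and 46.3 in conditioned replicate 1, with at most 9.38 in any other library. Those of chromosome 17 were at 95263967 to 95264723 and 95251273 to 95251349, more than 2 Mb from a listed region. The first of these had z of 14.2, 41.0, 34.4 and 9.94 in the controls and 14.7, 7.20, 17.9 and 30.2 in the conditioned libraries. Control replicate 2 was a carrier of all 5.

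Unlisted intervals were spread evenly over the autosomes, unlike listed regions. Their density ranged from 7.04 per Mb on chromosome 7 to 8.63 per Mb on chromosome 15, a ratio of 1.23, while listed regions ranged from 3.29 per Mb on chromosome 14 to 7.33 per Mb on chromosome 11, a ratio of 2.23. Chromosome 11 had 8.45 and chromosome 14 had 7.59 unlisted intervals per Mb. Across the 19 autosomes, which share the same libraries, the density of narrow intervals went with that of listed regions at Pearson's r of 0.596 (Spearman's rho 0.481) and that of wide intervals at -0.323 (rho -0.433), given as a description. In the 231 bins of 1 Mb without a listed region there were 1769 unlisted intervals, or 7.66 per bin, against 7.93 per bin in the 2195 bins with a listed region.

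**Figure D5:**
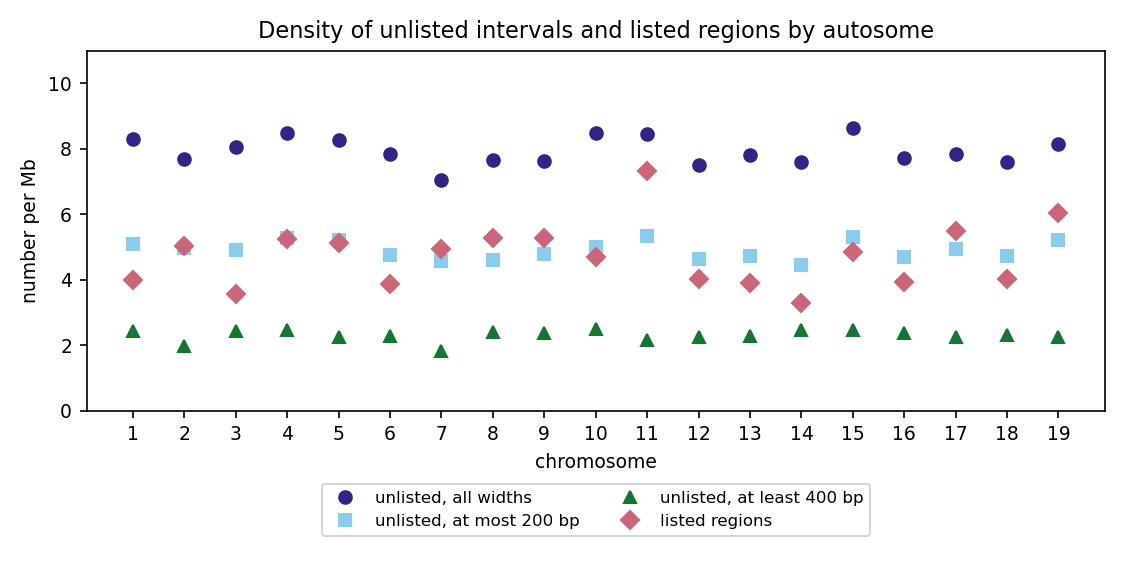
Number per Mb (y axis) of unlisted intervals of all widths (circles), of at most 200 bp (squares) and of at least 400 bp (triangles), and of listed regions (diamonds), for each autosome (x axis). Unlisted intervals stay between 7.04 and 8.63 per Mb, while listed regions range from 3.29 to 7.33.

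Near the thresholds the classes run into each other. The intervals just inside had a weakest carrier that passed by the smallest margin. They were on chromosome 1 (59149838 to 59149939, second carrier 32.4), chromosome 6 (86971293 to 86971383, 42.7) and chromosome 18 (59974392 to 59974681, 47.1). Just outside, 3 intervals of 1 library had a second library narrowly under the threshold. They were on chromosome 18 (38760581 to 38760631, strongest z 50.6), chromosome 4 (76472592 to 76473442, 30.9) and chromosome 5 (41975379 to 41976379, 37.1). The 5 unlisted intervals with the most weaker peaks elsewhere (6) and the highest z among these had 1 more library just under the threshold. They began at 66912495 on chromosome 12, 36890818 on chromosome 6, 55672116 on chromosome 13, 125029001 on chromosome 5 and 97399239 on chromosome 1, each with a peak in all 8 libraries. On chromosome 6, for example, z was 15.9, 75.1, 11.8 and 49.1 in the controls, just under 30 in conditioned replicate 1, and 9.64, 25.1 and 21.9 in conditioned replicates 2 to 4.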

How the data were processed

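Sono-seq of hippocampal chromatin was analysed in 8 libraries (4 control, 4 conditioned). Chopped tissue was crosslinked for 10 min in 2% PFA, 1 µg of sonicated chromatin was taken, and a gel slice near 300 bp was used, per the labels' protocols. Bowtie2 and build mm9 are named in the submitters' processing notes; the peak caller is not given in the sources used here. The deposited peak lists hold 1 z score per peak and library, and the deposited region list gives, per region, an average z score with its carrier number. The deposited raw read counts per listed region were used only for library totals and for the check of replicate numbers.

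Peaks on chromosomes 1 to 19 at z of at least 30 were merged in Python 3.11.15 (numpy 2.4.6, pandas 2.3.3); an overlap is at least 1 shared base. Coordinates are as deposited, with 50 bp added to the end. Peak span and weaker peaks per library were set against all 70 assignments of libraries to groups (exact permutation test, two-sided), with Benjamini-Hochberg values over 6 library measures, 4 of which are given without a test since the rule used them or they left no room for a difference. The tested measures are not independent of the rule either. The merging and overlap steps were tested on simulated data. The intervals, lists and rules were chosen with earlier results of these data known. Named intervals are the extremes in z, width, distance, carriers of 1 group, weaker peaks and closeness to the z threshold. Alternatives were other z minima and gaps, no added length, a distance of 1000 bp to the list, libraries left out, group medians and a replicate block. Where an alternative changed the thresholds or the libraries, the intervals were merged and chosen anew. Chosen after seeing the data were the share of spans of more than 1 step, the middle base, the 2 width classes and leaving out control replicates 1 and 3 together.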

Additional observations from a re-analysis of the deposited data

Results flagged for a closer look

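Control replicate 1 lay above the remaining controls in the share of its strong merged intervals that were unlisted intervals of 2 or 3 libraries: 16.8% against 10.5% to 11.6%. Its gap to the nearest control, divided by the range of the group, narrowly passed Dixon's 95% critical value for 4 samples. The share rests on carriage, which chose the intervals, so this pass is not a valid test and is given as a description. Chance passes about 1 in 20 groups of independent normal values. Here 16 groups were examined, several of them related measures of the same 8 libraries, so a pass can arise by chance. No conclusion is drawn from the flag. Control replicate 1 listed 900786 peaks over 160 Mb, more length than any other library, but only 13063 of these peaks reached a z of 30.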

How the results depend on the processing

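The numbers of intervals follow the z minimum by construction, and the cause of other shifts was not tested. With z minima of 25, 40 and 50, there were 38775, 4387 and 1208 unlisted intervals, 13563, 1846 and 613 carried by conditioned libraries only, 3009, 415 and 108 by controls only, 1054, 192 and 59 with non-overlapping groups, and a median highest z of 38.9, 58.2 and 71.0. At 40 and 50 the median width was 126 and 110 bp and the median distance 62281 and 52357 bp. With gaps of 0 and 500 bp, controls only carried 866 and 2596, and at 500 bp the median width was 293 bp; it was 88 bp with no length added. Leaving out control replicates 1 and 3 together gave 548 control-only intervals and 1877 with non-overlapping groups. Intervals of at most 200 bp numbered 11864 (4103 conditioned only, 362 non-overlapping, median width 105 bp), and those of at least 400 bp 5556 (2244 conditioned only, 179 control only, 184 non-overlapping, median width 900 bp, median highest z 43.1, median distance 99630 bp). For the non-overlapping counts in this paragraph, the share over all merged intervals at the same setting is not given. These counts are therefore not read as a result about the unlisted intervals.

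Without 1 library, the number of intervals ranged from 12101 (without conditioned replicate 4) to 17529. Conditioned-only intervals ranged from 2863 to 8065, and control-only ones from 474 (without control replicate 2) to 1790. Non-overlapping ones numbered 545 (4.50%, against 2.10% of all merged intervals) without conditioned replicate 4, the lowest count. The highest was 3016 (17.7%, against 6.75%), without conditioned replicate 2. The difference in median z, -0.371, changed sign at z minima of 40 (0.0994) and 50 (0.405) and at a gap of 0 bp (0.0317), and ran from -1.99 to 1.04 without 1 library. The difference in weaker peaks, 0.443 points, changed sign at a z minimum of 50 (-2.15), a gap of 0 bp (-0.177), no length added (-0.841) and without control replicates 1 and 3 (-1.23), and ran from -3.23 to 3.29 without 1 library. Over the alternatives run, the exact permutation p was 0.0857 or more for spans of more than 1 step (difference 3.24 to 19.7 points). It was 0.457 or more for weaker peaks. With 2 controls against 4 no p below 0.05 can be reached. The difference in intervals carried, a description, ran from 272.25 to 6497.

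With the replicate number as a block, the exact sign-flip permutation p was 0.375 for spans of more than 1 step (11.6 points). It was 0.875 for weaker peaks (0.443 points). Neither changed a call, and 4 pairs cannot go below 0.125. Deviations of same-numbered libraries correlated at 0.212, 0.022, -0.0221 and 0.280 over listed regions, and 2 of 8 libraries correlated best with their own number. For carriage of the unlisted intervals the 4 values were 0.0321, 0.0385, 0.0280 and 0.00851, and 7 of 8 libraries correlated best with their own number. Control replicate 4 and conditioned replicate 2, of unlike number, correlated at 0.0254. The rule fixed carriage at 2 or 3 libraries per interval, which ties the libraries together, so pairing cannot be read from these correlations. Not all 4 values passed 0.1 in either set, so the numbers were not taken as pairs.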

Other observations

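The few bins of 1 Mb with the most unlisted intervals were also rich in listed regions. Over all bins the relation was slight, with a mean of 7.93 unlisted intervals in bins with a listed region and 7.66 in bins without. The densest bin, on chromosome 10 between 79 and 80 Mb, held 28 unlisted intervals and 42 listed regions, and the next bin of that chromosome (80 to 81 Mb) held 22 and 56. Chromosome 7 between 29 and 30 Mb followed with 23 unlisted intervals and 18 listed regions. The median bin held 8 unlisted intervals, and 2410 of 2426 bins held at least 1. Neighbouring unlisted intervals were a median of 76175 bp apart, and 1210 of 19157 gaps (6.32%) were under 5000 bp.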
